A study of Rattus norvegicus with 48 samples.

Results

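The miRNAs described here are the mature products of the cluster of miR-221 and miR-222, chosen by name alone as the mature miRNAs whose names begin with rno-miR-221 or rno-miR-222. The count table lists 764 mature miRNAs, and 4 of them are members: rno-miR-221-3p, rno-miR-221-5p, rno-miR-222-3p and rno-miR-222-5p. A read was counted in at least 1 library for 664 mature miRNAs, and 301 passed the filter for testing (3 or more of the 48 libraries with 5 RPM or more, where RPM is reads per 1 M counted reads). The members rno-miR-221-3p, rno-miR-221-5p and rno-miR-222-3p passed it, and rno-miR-222-5p did not.

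Small RNA was sequenced from the liver of 48 male Sprague-Dawley rats, 3 in each of 16 groups. Rats were given thioacetamide (TAA), a hepatotoxicant that is activated in hepatocytes, each day at 4.5 mg/kg (low dose), 15 mg/kg (middle dose) or 45 mg/kg (high dose) for 3, 7, 14 or 28 days, and the controls of each time point received the vehicle. No genotype differed between the groups, and the labels do not give the age of the rats. Each library was made from 1 rat, so the p-values measure the spread between rats, and replicate numbers run from 1 to 48 over the whole series and pair no samples.

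A mature miRNA guides the Argonaute protein to mRNAs that match its seed, and the hairpin's arm that is loaded more often is called the guide strand, the other the passenger strand. miR-221 and miR-222 come from neighbouring hairpins on the X chromosome and share a seed, and among their known targets are the mRNAs of the cell cycle inhibitors p27 (Cdkn1b) and p57 (Cdkn1c) and of the metalloproteinase inhibitor TIMP3. Both are described as raised in human hepatocellular carcinoma, hence the name oncomirs. They are also expressed in activated hepatic stellate cells and in endothelium.

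The 4 mature sequences are shown because the seed (bases 2 to 8, in capitals) sets which member can be grouped with which. They were taken from RefSeq with the GRCr8 assembly, in which 689 of the 764 mature names and all 4 members were found. The deposited reads were not mapped to that assembly.
rno-miR-221-3p: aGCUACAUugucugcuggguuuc
rno-miR-222-3p: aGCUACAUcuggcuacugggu
rno-miR-221-5p: aCCUGGCAuacaauguagauuuc
rno-miR-222-5p: gGCUCAGUagccaguguagau
The 3p products share the seed GCUACAU, and no other mature miRNA of the sequence table had it. They are identical over their first 8 bases and at 11 of the 21 positions compared without gaps, counted from the 5′ end of miR-221-3p. By position they differ first by U9C. A shift between the sequences lowers such a count, and no alignment with gaps was made, so the count does not measure how alike their 3′ parts are. The seeds CCUGGCA of miR-221-5p and GCUCAGU of miR-222-5p were found in no other mature miRNA of the table.

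The hairpins are shown with both mature arms in capitals, because the arms of 1 transcript are compared below. Both lie on the plus strand of chromosome X (GRCr8), Mir222 at X:6022621-6022723 and Mir221 at X:6023182-6023290, with 458 bases between them. They lie within 2 annotated long noncoding RNA genes, LOC120099382 and LOC120099384, each of which spans both hairpins.
Mir222: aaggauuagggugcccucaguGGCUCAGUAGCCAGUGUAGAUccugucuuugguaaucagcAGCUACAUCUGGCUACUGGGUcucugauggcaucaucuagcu
Mir221: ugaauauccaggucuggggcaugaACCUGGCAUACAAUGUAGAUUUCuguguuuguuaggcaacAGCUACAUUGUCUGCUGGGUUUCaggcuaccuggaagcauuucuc
In Mir221 the 5p arm occupies X:6023206-6023228 and the 3p arm X:6023246-6023268. In Mir222 the arms occupy X:6022642-6022662 and X:6022682-6022702.

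Library totals were between 4829217 and 14906217 counts (median over all libraries 10237542) except in control 3-d replicate 1, which had 293331. In that library 3 reads, the limit that a count of 0 allows, correspond to 10.2 RPM, against 0.201 to 0.621 RPM in the others, for counting error only. It also stood apart in its content: the 4 red blood cell miRNAs summed to 81096 normalized RPM, against 786 to 9240 in the other 47 libraries, and the 4 hepatocyte miRNAs (rno-miR-122-5p, rno-miR-192-5p, rno-miR-194-5p and rno-miR-148a-3p) to 123764, against 253077 to 453439. For many of the members' values at 3-d and comparisons with the controls, the value without it is given too. A missing second value does not mean that the value was unchanged. Since whole liver was sequenced, fewer cells of a type and less RNA per cell cannot be told apart.

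The members were miRNAs of middle abundance, with the 3p arms as the major products. rno-miR-221-3p ranked 134 of the 664 miRNAs by mean level (90.2 RPM), with 24 to 1792 reads per library. rno-miR-222-3p ranked 165 (48 RPM), with 52 to 866 reads, and rno-miR-221-5p ranked 226 (13.4 RPM), with 0 to 547 reads. The passenger strand rno-miR-222-5p ranked 402 at 0.293 RPM, and its 143 reads in all were spread over 44 of the 48 libraries with at most 7 in any. Its highest level was 0.828 RPM, which is too low for a comparison between groups.

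The levels below are upper quartile normalized RPM. rno-miR-221-3p had a median of 86.7 and ran from 38.4 in low dose 28-d replicate 29 to 168 in control 3-d replicate 2. rno-miR-222-3p had a median of 43.2 and ran from 20.5, again in low dose 28-d replicate 29, to 147 in control 3-d replicate 1. rno-miR-221-5p had a median of 11.5 and ran from 0 in control 3-d replicate 1 to 37.1 in middle dose 28-d replicate 37. The zero is a count of 0 in the shallow library, which allows up to 10.2 RPM.

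**Figure D1:**
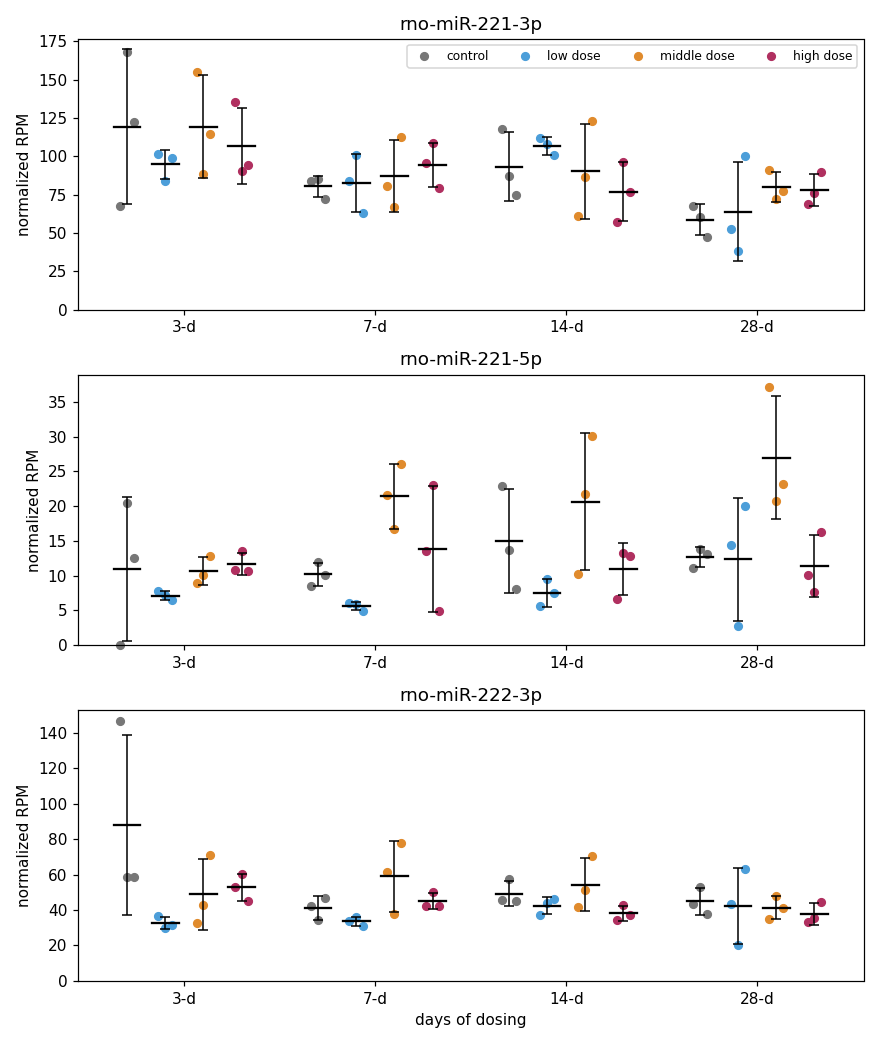
Upper quartile normalized RPM (vertical axes, from 0) of the 3 tested members in the 48 rats, by days of dosing and dose. Points are rats, thick lines group means and error bars SD (n = 3). The middle dose points of rno-miR-221-5p lie above the low dose points at each of the 4 time points, while the middle and low dose points of rno-miR-221-3p overlap at each.

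The order of the 16 group means differed between the members. For rno-miR-221-5p the top 3 groups were middle dose 28-d (27.01 ± 8.82, SD, n = 3), middle dose 7-d (21.4 ± 4.65) and middle dose 14-d (20.7 ± 9.91), and the lowest 3 were low dose 14-d (7.55 ± 1.99), 3-d (7.13 ± 0.662) and 7-d (5.63 ± 0.605), so that the highest mean was 4.80 times the lowest. For rno-miR-221-3p the order ran from middle dose 3-d (119 ± 33.7) and control 3-d (119 ± 50.4) down to control 28-d (58.5 ± 10.1), a range of 2.04 times. For rno-miR-222-3p it ran from control 3-d (88.0 ± 50.8) to low dose 3-d (32.6 ± 3.57), a range of 2.69 times. Without control 3-d replicate 1, control 3-d (n = 2) had a mean of 145 and was the highest group for rno-miR-221-3p, a range of 2.48 times. For rno-miR-222-3p its mean was then 58.6, below middle dose 7-d (59.003), and the range was 1.81 times. For rno-miR-221-5p its mean rose to 16.5, the 4th highest, and the top 3 and lowest 3 groups were as before. With all 48 libraries, of the 15 pairs of neighbours in each order, all 15 overlapped between rats for the 3p members and 14 for rno-miR-221-5p, where low dose 3-d and 7-d did not.

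For each dose and time point, the 3 treated rats were set against the 3 time-matched controls by the quasi-likelihood F-test of edgeR. A differentially expressed miRNA (DEM) had p below 0.05 before adjustment and differed by more than 1.5-fold. Doses of the same time point were set against the same 3 controls and are not independent. Among the 12 conditions rno-miR-221-5p was a DEM in 4, rno-miR-222-3p in 1 and rno-miR-221-3p in 0. Of all 301 tested miRNAs, 66 were called in 1 condition, 31 in 4 and 70 in 0.

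The passenger strand rno-miR-221-5p fell in 2 of the 4 low dose conditions and rose in 2 of the 4 middle dose conditions. At 7-d its level was 8.56, 11.9 and 10.05 in the controls and 6.08, 5.86 and 4.94 at low dose. At middle dose 7-d it was 21.6, 16.7 and 26.02. All low dose rats were below and all middle dose rats above every control. The log2 fold change was -0.85 (SE 0.20, edgeR adjusted p = 0.00864) at low dose and 1.07 (SE 0.20, edgeR adjusted p = 0.00486) at middle dose. In the same comparisons 28.9% and 15.9% of all tested miRNAs were DEMs, and 26.9% and 14.6% with an adjusted p-value below 0.05.

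At high dose 7-d rno-miR-221-5p was 13.5, 23.1 and 4.996, a spread that covered the controls and overlapped both other doses. Its log2 fold change of 0.46 (SE 0.49) was no DEM, while 21.3% of the tested miRNAs were.

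At 28-d the controls had 11.1, 13.9 and 13.1 and the middle dose rats 37.1, 20.7 and 23.2, again with no overlap. The log2 fold change was 1.09 (SE 0.24, edgeR adjusted p = 0.00737), where 32.9% of the tested miRNAs were DEMs and 30.2% also had an adjusted p-value below 0.05. Neither low dose (14.4, 2.70 and 20.01, log2 fold change -0.03, SE 0.57) nor high dose (10.05, 7.69 and 16.3, log2 fold change -0.16, SE 0.27) was called at 28-d, where 12.3% and 15.3% of the tested miRNAs were DEMs. The low dose rats differed most among themselves, with replicate 29 far below the others.

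At 14-d the controls had 22.9, 13.7 and 8.15, the low dose rats 5.60, 9.58 and 7.49 and the middle dose rats 10.3, 21.7 and 30.03. Low dose was a DEM at a log2 fold change of -0.97 (SE 0.35, edgeR adjusted p = 0.0460) although 1 control overlapped the treated rats. In that condition 32.6% of the tested miRNAs were DEMs and 30.2% also after adjustment. The call was lost without control 14-d replicate 13, the highest control (log2 fold change -0.52), and without low dose 14-d replicate 42 (-0.96). Middle dose (0.48, SE 0.40) and high dose (6.68, 13.3 and 12.9, log2 fold change -0.45, SE 0.40) were not called, against 17.3% and 9.3% of the tested miRNAs.

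At 3-d the level was 0, 20.5 and 12.6 in the controls, 7.77, 7.17 and 6.45 after the low dose, 8.94, 10.1 and 12.9 after the middle dose and 10.8, 13.5 and 10.7 after the high dose. With the shallow control all 3 treated groups overlapped the controls and none was a DEM (log2 fold change at low dose -0.91, SE 0.63), where 16.6%, 2.99% and 11.3% of the tested miRNAs were DEMs at low, middle and high dose in that order. Without control 3-d replicate 1, low dose was a DEM at -1.21 (SE 0.26, edgeR adjusted p = 0.0237), and middle dose (-0.64, SE 0.37) and high dose (-0.50, SE 0.37) were not.

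**Figure D2:**
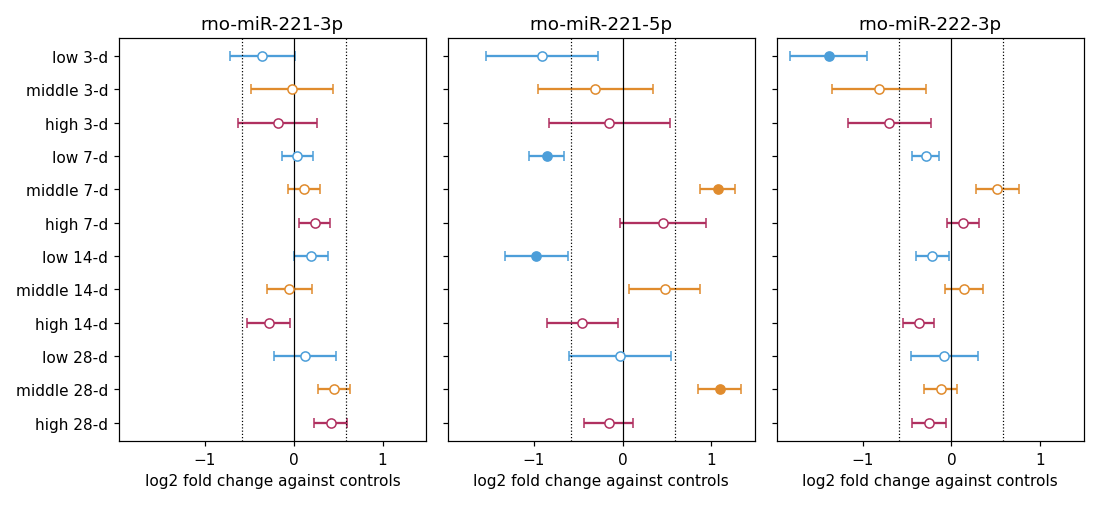
Log2 fold change against the time-matched controls (horizontal axis) with its SE in the 12 treatment conditions, for each tested member. Filled points are DEMs, open points are not, and dotted lines mark a fold change of 1.5 in either direction. The 4 filled points of rno-miR-221-5p lie at -0.97, -0.85, 1.07 and 1.09, the single one of rno-miR-222-3p at -1.38.

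The guide strand rno-miR-222-3p was a DEM in low dose 3-d, where it was lower. The controls had 147, 58.6 and 58.7, with the shallow library highest, and the low dose rats 36.7, 29.9 and 31.4, below every control. The log2 fold change was -1.38 (SE 0.43), and the edgeR adjusted p was 0.219. No miRNA passed the adjusted threshold of edgeR's quasi-likelihood F-test there (0.0% of 301), while 52 had an unadjusted p-value below 0.05, and edgeR's exact test and DESeq2 called 13 and 42 after adjustment. Without control 3-d replicate 1 the fold was smaller but the spread too, with a log2 fold change of -0.85 (SE 0.15, edgeR adjusted p = 0.0131). The DEM call was lost without low dose 3-d replicate 44 (-1.33) or replicate 45 (-1.37).

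At middle and high dose 3-d rno-miR-222-3p was 32.8, 42.6 and 71.0 and then 53.0, 60.2 and 45.2, with log2 fold changes of -0.81 (SE 0.53) and -0.70 (SE 0.47), neither a DEM. Without the shallow control these values came to -0.27 and -0.15. From 7-d on no condition of rno-miR-222-3p was called, and its log2 fold changes were between -0.37 at high dose 14-d and 0.52 at middle dose 7-d. The latter, with rats at 61.2, 38.01 and 77.8 against controls at 42.4, 34.1 and 47.1, overlapped the controls and was called without middle dose 7-d replicate 35 (0.75) or control 7-d replicate 6 (0.63).

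The guide strand rno-miR-221-3p was a DEM in none of the 12 conditions, with log2 fold changes between -0.35 and 0.45. At 28-d the controls had 67.4, 60.6 and 47.5, the middle dose rats 91.1, 71.9 and 77.5 and the high dose rats 68.8, 76.2 and 89.5. All 6 treated rats were above every control, but the folds of 1.37 (log2 fold change 0.45, SE 0.18, edgeR adjusted p = 0.0807) and 1.33 (0.42, SE 0.18, edgeR adjusted p = 0.171) were below the threshold of 1.5. Both doses were set against the same controls, and 32.9% and 15.3% of the tested miRNAs were DEMs there. How many of all tested miRNAs lay apart from the controls in this way was not counted. The low dose rats of 28-d had 52.8, 38.4 and 100, on both sides of the controls.

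At 3-d rno-miR-221-3p was 67.7, 168 and 122 in the controls and 101, 83.9 and 98.9 at low dose, inside the range of the controls. Without control 3-d replicate 1, the lowest of the 3, low dose 3-d became a DEM at -0.62 (SE 0.17, edgeR adjusted p = 0.0474). The 3 tested members were then all lower at low dose 3-d, where without this library 23.6% of the tested miRNAs were DEMs (17.6% also after adjustment) and 10.3% were lower DEMs. The median log2 fold change of all tested miRNAs was 0.11 in that comparison.

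The mean effect of a dose over the 4 time points was tested in a single fit of all 48 libraries, with p-values adjusted over the 301 miRNAs. At low dose rno-miR-221-5p was lower by a log2 fold change of -0.71 (SE 0.25, edgeR adjusted p = 0.0174) and rno-miR-222-3p by -0.48 (SE 0.15, edgeR adjusted p = 0.00960), while rno-miR-221-3p was at -0.01 (SE 0.15). These 2 of 3 stand beside 49.8% of all tested miRNAs that passed. Without control 3-d replicate 1 the values were -0.77 and -0.36 and both still passed, whereas without control 3-d replicate 2 rno-miR-221-5p was at -0.59 with an edgeR adjusted p of 0.0583.

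At middle dose rno-miR-221-5p had a mean effect of 0.55 (SE 0.24, edgeR adjusted p = 0.0774), which missed the threshold, with rno-miR-221-3p at 0.12 and rno-miR-222-3p at -0.05. At high dose the 3 means were 0.04, -0.11 and -0.28 for rno-miR-221-3p, rno-miR-221-5p and rno-miR-222-3p, and none passed. Of all tested miRNAs 36.5% passed at middle and 28.2% at high dose. Without control 3-d replicate 1 the middle dose means of rno-miR-221-3p, rno-miR-221-5p and rno-miR-222-3p were 0.06, 0.50 and 0.07. The high dose means were then -0.02, -0.16 and -0.16 in that order, and again none passed at either dose.

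The mean effect of a time point over the 3 doses passed for rno-miR-222-3p at 3-d (-0.90, SE 0.25, edgeR adjusted p = 0.00824), where 31.2% of all tested miRNAs passed. It did not without control 3-d replicate 1 (-0.42, edgeR adjusted p = 0.347). At the 3 later time points no member passed, where 10.3%, 4.32% and 8.64% of the tested miRNAs did.

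Whether the doses differed from each other was tested directly. At 7-d they differed for rno-miR-221-5p (edgeR adjusted p = 0.0156, 25.9% of all tested miRNAs). That adjusted p was 0.0504, 0.0510 and 0.0694 without middle dose 7-d replicate 36, low dose 7-d replicate 47 and low dose 7-d replicate 48. At 3-d, 14-d and 28-d the adjusted p-values of rno-miR-221-5p were 0.534, 0.0550 and 0.0960 (16.6%, 29.2% and 10.6% of tested miRNAs passed), and the 3p members passed at no time point. Without control 3-d replicate 1, rno-miR-221-5p passed at 14-d (edgeR adjusted p = 0.0299) and 28-d (edgeR adjusted p = 0.0454). Then rno-miR-222-3p passed at 7-d (edgeR adjusted p = 0.0487). How many of all tested miRNAs passed without that library was not counted. No member passed the test of a treatment effect that differs between time points within low, middle or high dose, where 4.98%, 0.997% and 21.3% of all tested miRNAs passed. The single contrasts of high minus low dose at each time point and of 28-d minus 7-d in each dose passed for no member. How many of all tested miRNAs passed these single contrasts was not counted, so the members cannot be set beside them here.

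Middle and low dose were then compared over all 4 time points, a comparison added after the data were seen. rno-miR-221-5p was higher at middle dose by a log2 difference of 1.27 (SE 0.25, edgeR adjusted p = 7.48e-05) and rno-miR-222-3p by 0.43 (SE 0.15, edgeR adjusted p = 0.0200), with rno-miR-221-3p at 0.12 (SE 0.15). Of all tested miRNAs 47.5% passed this contrast, so a passing value was common. The difference of rno-miR-222-3p missed the threshold without middle dose 3-d replicate 12 (0.33), 14-d replicate 33 (0.37) or 7-d replicate 36 (0.36). Any difference between the 3 doses over the time points gave an edgeR adjusted p of 0.000283 for rno-miR-221-5p, 0.0562 for rno-miR-222-3p and 0.744 for rno-miR-221-3p, with 47.8% of the tested miRNAs past the threshold. Without control 3-d replicate 1 the edgeR adjusted p of rno-miR-222-3p was 0.0225.

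Every middle dose rat was above every low dose rat of its time point for rno-miR-221-5p at 4 of 4 time points. Only 7 of the 301 tested miRNAs (2.33%) showed this, and 9 showed the opposite order at 4 of 4. The gap was narrow at 28-d, with the lowest middle dose rat at 20.7 and the highest low dose rat at 20.01, and at 14-d, with 10.3 against 9.58. For rno-miR-222-3p the groups did not overlap at 1 of 4 time points and for rno-miR-221-3p at 0 of 4.

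With all 48 libraries, the test of any difference between the control groups passed for the 3p members, but both results depended on single libraries. rno-miR-221-3p fell from group means of 119 at 3-d to 80.3, 93.3 and 58.5 at the later time points (edgeR adjusted p = 0.0282 for any difference), and rno-miR-222-3p had means of 88.0, 41.2, 49.3 and 44.9 (edgeR adjusted p = 0.0440). Of all tested miRNAs 33.6% passed. For rno-miR-222-3p the adjusted p was 0.602 without control 3-d replicate 1, and for rno-miR-221-3p it was 0.152 without control 3-d replicate 2, 0.0653 without control 28-d replicate 17 and 0.114 without control 28-d replicate 18. For rno-miR-221-5p it was 0.798 with all libraries.

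Since the 2 arms of Mir221 come from 1 hairpin, their ratio within a library does not depend on the scaling between libraries. The 5p arm made up 12.3% of the reads of both arms in the median control (0 to 21.6% in 12 rats), 7.03% in low dose rats (4.77 to 21.4%), 19.8% in middle dose rats (5.44 to 28.9%) and 12.3% in high dose rats (5.93 to 17.6%). At 7-d the share was 9.28, 12.3 and 12.2% in the controls, 6.75, 5.49 and 7.30% at low dose, 21.1, 19.9 and 18.7% after the middle dose and 12.4, 17.6 and 5.93% after the high dose. Low and middle dose were apart from the controls and from each other, and the high dose rats overlapped the controls and the low dose rats and were below all middle dose rats.

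At 14-d the low dose rats (4.77, 8.13 and 6.93%) were again below all controls (16.3, 13.6 and 9.84%), and the middle dose rats (14.4, 20.1 and 19.6%) above all low dose rats. At 28-d the middle dose rats (28.9, 22.4 and 23.04%) were above all controls (14.1, 18.7 and 21.6%) and above the low dose rats (21.4, 6.57 and 16.7%). At 3-d the middle dose rats (5.44, 10.3 and 10.1%) overlapped the low dose rats (7.12, 7.88 and 6.12%).

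**Figure D3:**
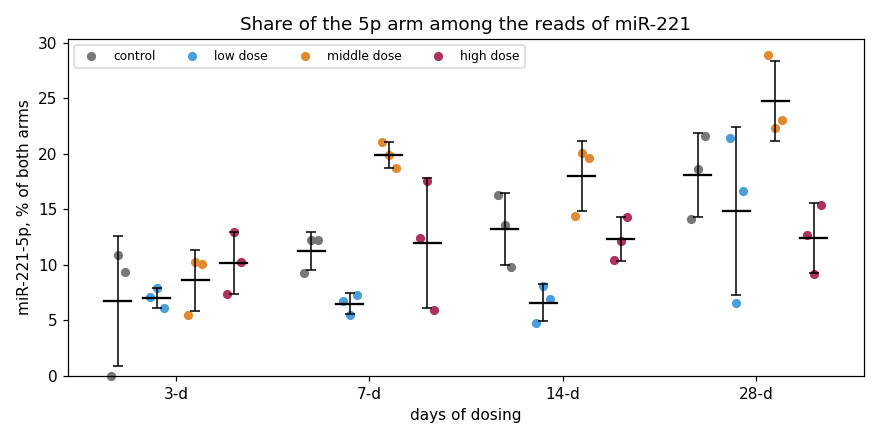
Reads of rno-miR-221-5p as a percentage of the reads of both arms of miR-221 (vertical axis, from 0) in the 48 rats, by days of dosing and dose. Points are rats, thick lines group means and error bars SD (n = 3). The middle dose means are 19.9% at 7-d, 18.03% at 14-d and 24.8% at 28-d, against 6.51, 6.61 and 14.9% at low dose.

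With the doses of a time point pooled (9 treated rats, 3 controls), the log2 ratio of miR-221-3p to miR-221-5p and that of miR-221-3p to miR-222-3p gave 8 tests, and none passed after adjustment (exact permutation tests, 2-sided, lowest adjusted p = 0.4). The lowest unadjusted p was that of miR-221-3p to miR-222-3p at 28-d, higher by 0.50 on the log2 scale in the treated rats (exact permutation p = 0.05).

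Comparisons of single doses over the 4 time points, 12 rats against 12 with rats exchanged only within a time point, were added after the data were seen (12 exact permutation tests, 2-sided, adjusted over the 12). The log2 ratio of miR-221-3p to miR-221-5p was lower at middle than at low dose by a difference of -1.20 (exact permutation p = 0.00015, adjusted 0.0018), in the same direction at 4 of 4 time points. It was lower at middle dose than in the controls (-0.65, exact permutation p = 0.00612, adjusted 0.0238, 4 of 4 time points) and higher at high than at middle dose (0.65, exact permutation p = 0.00794, adjusted 0.0238, 3 of 4 time points). The difference of low dose from the controls (0.55, adjusted p = 0.133 by exact permutation) and of high from low dose (-0.55, adjusted p = 0.0750 by exact permutation) did not pass. Without middle dose 3-d replicate 11 or 12, both middle from controls and high from middle dose missed the threshold (adjusted p = 0.0750 by exact permutation). High from middle dose also missed it without high dose 3-d replicate 22 (0.0527). High from low dose passed without high dose 7-d replicate 27 (0.0307) or low dose 28-d replicate 28 (0.0213).

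The comparisons with the controls moved with control 3-d replicate 1, whose ratio rests on a count of 0. Without it, middle dose was lower than the controls by -0.45 (adjusted p = 0.0482 by exact permutation), in the same direction at 3 of 4 time points, since the 3-d difference turned from -0.52 to 0.30. Low dose was then higher than the controls by 0.75 (adjusted p = 0.00308 by exact permutation, 4 of 4 time points), so that this comparison passed without the library and not with it.

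The other ratio, miR-221-3p to miR-222-3p, compares guide strands with the same seed. Its median was 1.60 in the controls, 2.47 in low dose, 1.71 in middle dose and 2.08 in high dose rats. It was higher at low dose than in the controls by a log2 difference of 0.50 (exact permutation p = 0.00791, adjusted 0.0238, 4 of 4 time points) and by 0.30 without control 3-d replicate 1, in which miR-222-3p had more reads (52) than miR-221-3p (24). This difference missed the threshold without low dose 3-d replicate 43, 44 or 45 (adjusted p = 0.0840, 0.0735 and 0.101 by exact permutation). No other pair of doses passed for this ratio.

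The shift between the arms was set beside all 81 hairpins whose arms were both tested. The log2 ratio of the minor to the major arm, middle minus low dose, had a median of 0.07 over the hairpins with quartiles of -0.21 and 0.51, ran from -1.54 to 1.37 and was above 0 in 46. miR-221 had rank 3 at 1.20, with single time points from 0.26 to 1.83, after miR-93 (1.37) and miR-98 (1.22), and 5 hairpins differed by more in size, counting both directions. In 16 of the 81 the middle dose rats were all higher than the low dose rats at 3 or more time points, miR-221 among them, and in 8 all lower. Against the controls the minor arm of miR-93 was lower at both doses (-1.66 at low and -0.29 at middle dose), while that of miR-221 was on both sides (-0.55 and 0.65). Being on both sides was not particular to miR-221. The hairpins of rank 2 and 4, miR-98 (-1.13 and 0.09) and miR-466c (-0.72 and 0.45), were so as well. These values include control 3-d replicate 1, and those of miR-221 moved without it as given above.

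**Figure D4:**
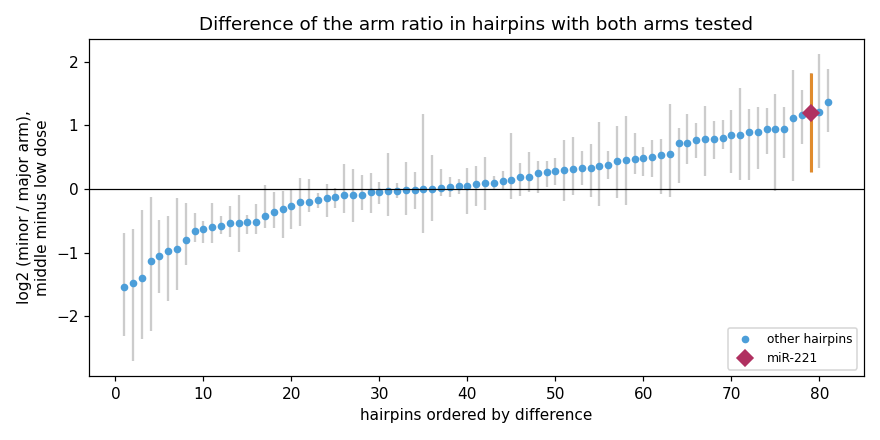
Log2 ratio of minor to major arm, middle minus low dose as the mean over the 4 time points (vertical axis), in the 81 hairpins with both arms tested, ordered by this difference. Vertical lines run from the lowest to the highest time point. miR-221 (diamond) has rank 3 at 1.20 and its 4 time points are all above 0.

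Sums of cell type marker miRNAs differed between the doses in the same libraries. The 4 leukocyte markers (rno-miR-142-3p, rno-miR-142-5p, rno-miR-223-3p and rno-miR-150-5p) summed to 1845 to 4519 normalized RPM at low dose (median 2786) and to 2344 to 5346 at middle dose (median 3587). The 6 markers of stellate cells and smooth muscle, among them rno-miR-143-3p, rno-miR-145-5p and rno-miR-199a-3p, summed to 30430 to 57839 at low dose (median 50019) and to 30873 to 41722 at middle dose (median 35928). That sum is mostly 1 miRNA, rno-miR-143-3p, which held 96.1% of the reads of the list over all libraries, and the other 5 summed to 1107 to 1631 at low dose (median 1283) and to 1337 to 2213 at middle dose (median 1656), the opposite order. The 4 red blood cell markers summed to 1940 to 6255 at low dose (median 4509) and to 1451 to 9240 at middle dose (median 2249), and rno-miR-486 held 90.7% of their reads. The 4 hepatocyte miRNAs summed to 288796 to 453439 at low dose (median 369137) and to 260384 to 347733 at middle dose (median 289797). The 2 arms of miR-126a, markers of endothelium, summed to 18295 to 26780 (median 22441) and 17079 to 27210 (median 21378). The 5 markers of bile duct and other epithelium were rno-miR-200a-3p, rno-miR-200b-3p, rno-miR-200c-3p, rno-miR-141-3p and rno-miR-429. They summed to 305 to 1241 at low dose (median 701) and to 585 to 1369 at middle dose (median 823). At 7-d they summed to 1007 to 1086 in the controls, 395 to 492 at low dose and 804 to 1369 at middle dose. Low and middle dose overlapped at 3-d (738 to 1112 and 922 to 1185) and at 14-d (451 to 747 and 585 to 842). At 28-d the median was higher at low dose (918, range 305 to 1241) than at middle dose (721, range 709 to 769). No marker of these lists was at 0 in any library.

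As a description over the 47 libraries without the shallow one, Pearson's r of the log2 ratio of miR-221-5p to miR-221-3p was 0.69 with the leukocyte sum, -0.73 with the stellate sum (0.44 with its markers other than rno-miR-143-3p), -0.51 with the red blood cell sum and -0.41 with the hepatocyte sum. It was 0.32 with the endothelial sum and 0.29 with the sum of bile duct and other epithelium. These values share libraries, depth and scaling, and they pool all doses and time points. The controls alone also differed with time. Leaving out the shallow one, their leukocyte sum was 2687 and 3585 at 3-d and 4177 to 5104 at 28-d. Their 5p share of both arms was 10.9 and 9.32% at 3-d and 14.1 to 21.6% at 28-d. Their stellate sums overlapped, at 40997 and 48120 and then 27168 to 44340. Whether r holds within a time point or within a dose was not tested. In low dose 7-d and 14-d, where rno-miR-221-5p was a lower DEM, 2 of the 4 leukocyte markers were lower DEMs in each, 2 and 1 of the 4 red blood cell markers and 2 and 1 of the 6 stellate markers (rno-miR-145-5p in both, rno-miR-145-3p at 7-d), beside 10.6% and 9.63% of all tested miRNAs that were lower DEMs. In middle dose 7-d and 28-d, where it was higher, 0 of 4 leukocyte markers were DEMs. Of the 6 stellate markers 1 and 2 were higher DEMs there (rno-miR-199a-5p in both, rno-miR-214-3p at 28-d), beside 11.96% and 20.9% of all tested miRNAs, and 3 of the 4 red blood cell markers were lower DEMs in each, beside 3.99% and 11.96%. rno-miR-143-3p was a DEM in none of these 4 conditions. Over all 12 conditions the hepatocyte list gave 2 higher and 1 lower DEM calls among 48 pairs of miRNA and condition. The bile duct and epithelium list gave 5 and 8 among 60, and the endothelial list 0 and 0 among 24. Of all such pairs 12.1% were higher and 5.98% lower DEM calls. The part of these cells in the result was not tested.

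The miRNAs whose levels were most like those of each member over the 48 libraries (Pearson's r of log2 normalized RPM plus 1) were not the other members. rno-miR-221-3p was most like rno-miR-17-5p (r = 0.58), a member of the proliferation-linked miR-17 to miR-92a cluster, followed by rno-miR-15b-3p (0.54), rno-miR-187-3p (0.54), rno-miR-455-5p (0.53) and rno-miR-15b-5p (0.51). rno-miR-222-3p was most like rno-miR-423-3p (0.79), rno-miR-423-5p, rno-miR-92a-3p, rno-miR-361-3p and rno-let-7e-3p (0.71). rno-miR-221-5p was most like rno-miR-362-5p (0.83), rno-miR-126a-3p (0.82), rno-miR-450b-5p (0.80), rno-miR-374-3p (0.80) and rno-miR-511-5p (0.80). These neighbours depended on the shallow library. Without it, 3 of the 5 of rno-miR-221-3p, 2 of the 5 of rno-miR-222-3p and 1 of the 5 of rno-miR-221-5p were still among the top 5. For rno-miR-221-5p the r of rno-miR-362-5p was then 0.77 and those of the other 4 between 0.65 and 0.70, and for rno-miR-222-3p the 5 were between 0.52 and 0.67.

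Between the members r depended on the shallow library. rno-miR-221-5p and rno-miR-222-3p had r = 0.07 over 48 libraries and 0.64 over 47, where rno-miR-221-5p was 4th of the 300 other miRNAs most like rno-miR-222-3p. The guide strands with the same seed had 0.31 and 0.46, and the arms of Mir221 0.31 and 0.30.

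The members can be read beside other miRNAs described in liver cancer. Of 12 miRNAs known to be raised in hepatocellular carcinoma, 11 were tested, and rno-miR-224-5p was not. Over the 12 conditions these 11 gave 25 higher and 2 lower DEM calls among 132 pairs of miRNA and condition, with the most at high dose 7-d and middle dose 28-d (5 of 11 higher in each), beside 436 higher and 216 lower calls among the 3612 pairs of all tested miRNAs (12.1% and 5.98%). At high dose 7-d and middle dose 28-d, 17.9% and 20.9% of all tested miRNAs were higher DEMs. rno-miR-21-5p, an abundant miRNA raised in many tumours, was a higher DEM at low and high dose 3-d and at high dose 7-d (log2 fold change 0.78, 1.02 and 0.59) and a lower DEM at high dose 14-d (-0.68). rno-miR-155-5p, an inflammation-linked miRNA, was a higher DEM at high dose 3-d, low dose 7-d and high dose 7-d (2.47, 0.69 and 1.30). At high dose 3-d and 7-d, where both were called, no member was a DEM, beside 11.3% and 21.3% of all tested miRNAs. At low dose 3-d, where rno-miR-21-5p was called, rno-miR-222-3p was a lower DEM, beside 16.6% of all tested miRNAs called. At low dose 7-d, where rno-miR-155-5p was called, rno-miR-221-5p was a lower DEM, beside 28.9%. The 3-d calls of the lists were made with control 3-d replicate 1. There the raised list summed to 20625 normalized RPM, against 25193 to 65608 in the other 47 libraries. Whether the high dose 3-d calls of the lists hold without that library was not tested.

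Of 12 miRNAs known to be lowered in hepatocellular carcinoma, among them rno-miR-122-5p, rno-miR-26a-5p and rno-let-7c-5p, all were tested. They gave 10 higher and 17 lower DEM calls among 144 pairs. At most 4 of 12 were lower in a condition (low dose 14-d), where 9.63% of all tested miRNAs were lower DEMs. The median log2 fold change of the raised list was between 0.06 and 0.59 over the conditions and that of the lowered list between -0.41 and 0.40, while the median of all tested miRNAs was between -0.06 and 0.28.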

How the data were processed

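Liver miRNA was sequenced from 48 rats, and the raw counts deposited by the authors were used, with no other per-sample values. The authors removed adaptors, discarded reads shorter than 18 or longer than 25 bases and assigned the rest to miRBase release 21 with miRDeep2. The deposited counts were neither normalized, filtered nor pooled, and the submitters' processing notes name FastQC and the build rn5. For a mature miRNA with several precursors the precursor with the most reads was taken, but each member has 1 precursor. The members, lists and tests were chosen with earlier results of these data known.

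The 301 miRNAs with at least 5 RPM in at least 3 libraries were tested with edgeR 4.0.16 (R 4.3.3) by its quasi-likelihood F-test after upper quartile normalization, in fits of 3 treated and 3 control libraries or in a single fit of 48 libraries. DEM thresholds follow the study's methods, whose text does not give the libraries of each fit. Adjusted p-values are Benjamini-Hochberg over the 301. SEs are the size of a log2 fold change over the root of its F statistic. A permutation test of 3 rats against 3 cannot go below 0.1, so none was run there. Ratios used counts plus 0.5 reads. No pair of replicates had identical counts, and all differed beyond sampling noise (lowest chi-square per degree of freedom 79.7, 48 pairs). On simulated data for low dose 7-d, 95 of 95 changed miRNAs and 0 of 206 unchanged ones were called. In the simulated test of a difference between time points at low dose, 92 of 95 and 4 of 206 were called. The simulated folds were larger than those of the rno-miR-221-5p calls, and all miRNAs had the same simulated dispersion. These counts therefore check the code and give no power or error rate for the members.

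Named miRNAs are the members, the 5 most like each by Pearson's r, and lists of liver cancer and cell type miRNAs. Alternatives were TMM, DESeq2 size factors, library size alone, no filter, 5 RPM in every library, DESeq2 1.42.0 (Wald test), the exact test of edgeR, pooled controls, a single fit, adjusted p-values, the mean over precursors, a pseudocount of 1 read, Spearman's rho and each library left out. Comparisons of doses over the time points were added after the data were seen. Python 3.11.15, pandas 2.3.3, numpy 2.4.6, scipy 1.17.1 and matplotlib 3.10.9 were used.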

Additional observations from a re-analysis of the deposited data

Results flagged for a closer look

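The following results were noted because the doses differed from each other in a direct test. For rno-miR-221-5p the treatment effect differed between the 3 doses at 7-d (edgeR adjusted p = 0.0156) and over the 4 time points (edgeR adjusted p = 0.000283). The middle minus low dose difference over the time points was 1.27 on the log2 scale for rno-miR-221-5p and 0.43 for rno-miR-222-3p. The log2 ratio of miR-221-3p to miR-221-5p differed by -1.20 between middle and low dose and by 0.65 between high and middle dose, by exact permutation. The comparisons over the time points were chosen after the data were seen, and 47.5% of all tested miRNAs differed between middle and low dose. Groups of 3 rats are too small to test a rat as an outlier.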

How the results depend on the processing

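The number of conditions with rno-miR-221-3p as a DEM rose from 0 to 1 with library size alone and with 5 RPM in every library (middle dose 28-d, 0.74 and 0.61) and with the DESeq2 Wald test (low dose 3-d, -0.62). With all 12 controls pooled its log2 fold change turned to 0.10 at low dose 3-d and to -0.14 at middle dose 28-d. That of rno-miR-221-5p went from 4 to 2 in a single fit of 48 libraries, which lost low dose 7-d (-0.85) and 14-d (-0.97), and rno-miR-221-5p has no value with 5 RPM in every library, a level it did not reach in 4 libraries, the shallow control and 1 low dose library at each of the 3 later time points. With all 12 controls pooled the number stayed at 4, but low dose 14-d was lost (-0.76) and low dose 3-d gained (-0.85). The number for rno-miR-222-3p went from 1 to 0 with adjusted p-values and to 2 with library size alone, 5 RPM in every library and the single fit. With library size alone 2 mean effects of rno-miR-221-5p passed instead of 1, and with TMM, DESeq2 size factors or library size alone 2 tests of a difference between doses or time points instead of 1. For rno-miR-222-3p, TMM gave 1 such test instead of 0, and without a filter the adjusted p between control groups was 0.0992 and the middle minus low difference 0.41 (adjusted p = 0.0547). Upper quartile scaling left the median log2 fold change of all tested miRNAs at 0.16, 0.21 and 0.28 at low, middle and high dose 3-d, at 0.14 at high dose 7-d and at 0.11 at low dose 14-d, and no scaling changed the direction of a DEM call of a member.

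With each library left out, the DEM counts of rno-miR-221-3p, rno-miR-221-5p and rno-miR-222-3p ranged over 0 to 1, 3 to 5 and 0 to 2. Mean effects past the threshold ranged over 1 to 2 for rno-miR-221-5p and 1 to 2 for rno-miR-222-3p, tests of a difference over 0 to 3 and 0 to 1, and the adjusted p between control groups over 0.0134 to 0.152 for rno-miR-221-3p and 0.0225 to 0.602 for rno-miR-222-3p. The log2 ratio of miR-221-3p to miR-222-3p, treated minus control, ranged over -0.0017 to 1.31 at 3-d, -0.18 to 0.17 at 7-d and -0.046 to 0.34 at 14-d, and that of miR-221-3p to miR-221-5p over -0.997 to 0.29 at 3-d and -0.18 to 0.12 at 7-d. Over the time points, low minus control of miR-221-3p to miR-222-3p ranged over 0.30 to 0.63, and of miR-221-3p to miR-221-5p middle minus control over -0.77 to -0.45, middle minus low over -1.30 to -1.06, high minus low over -0.67 to -0.41 and high minus middle over 0.53 to 0.74. Causes of these changes were not tested. No paired analysis was possible because replicate numbers run through the series and are shared by no groups. In control 3-d replicate 1 a level under 10.2 RPM cannot be told from 0.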
